A study of Mus musculus with 2 samples.

Results

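The 6 genes described here encode the receptors and 1 enzyme through which gonadal steroids and prolactin act on the brain, with 1 target gene: the estrogen receptors Esr1 (ERα) and Esr2 (ERβ), the progesterone receptor Pgr, aromatase (Cyp19a1), the prolactin receptor Prlr, and Greb1, an estrogen-regulated gene. They were taken by symbol from the gene lists of both libraries, and all 6 of 6 were found among 31054 genes. The study prepared single cells from the preoptic area, the front part of the hypothalamus, of mice given as wild-type C57BL/6J. The mice were aged 9 to 10 weeks, with males and females pooled. One library (SD) came from mice kept awake for 6 h, and for the other (SD+RS) the same 6 h were followed by 2 h in which the mice could sleep. No library from undisturbed mice was analysed here, and the sources used here give neither the number of pooled mice nor the estrous stage of the females. The authors' deposited marker genes of the SD library have a transcript named YFP among the leading genes of clusters 7 and 14. Where it comes from was not tested.

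Gonadal steroids cross into the brain and bind receptors that act as transcription factors. Aromatase converts androgens to estrogens inside neurons, estrogen-bound receptors act on target genes that include Pgr and Greb1, and progesterone then acts through the progesterone receptor. Prolactin is a pituitary hormone whose receptor is a cell-surface cytokine receptor that signals through Jak2 and Stat5. In the preoptic area these receptors are known for their part in mating, parenting, ovulation and body temperature, and Act-seq, the preparation used, adds a transcription blocker during dissociation to limit changes of RNA after death.

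On the mm10 build, Esr1 lies on chromosome 10 (4611593 to 5005614, plus strand), Pgr and Cyp19a1 on chromosome 9 (8899833 to 8968611, plus, and 54165937 to 54268110, minus) and Prlr on chromosome 15 (10177238 to 10349180, plus). Esr2 (76120419 to 76177259) and Greb1 (16670615 to 16800886) lie on the minus strand of chromosome 12. Greb1 overlaps an annotated antisense gene, Gm48140, and a miRNA gene, Gm44305, Esr2 overlaps the processed pseudogene Gm7862, and Prlr overlaps the gene model Gm21973. The sources used here do not say how reads in these overlaps were assigned.

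Pgr and Greb1 were the members whose levels were lower together in one class of neurons below. The 250 bases before a start of each are therefore shown from RefSeq (GRCm38.p6), 5′ to 3′ on the strand of the gene. Greb1 has 2 such windows, of which 1 is shown. The Pgr window is chr9:8899583-8899832 (plus strand) and the Greb1 window is chr12:16800887-16801136 (minus strand). Capitals mark a match to AGGTCA, a single arm of the estrogen-response motif, searched on both strands.
Pgr: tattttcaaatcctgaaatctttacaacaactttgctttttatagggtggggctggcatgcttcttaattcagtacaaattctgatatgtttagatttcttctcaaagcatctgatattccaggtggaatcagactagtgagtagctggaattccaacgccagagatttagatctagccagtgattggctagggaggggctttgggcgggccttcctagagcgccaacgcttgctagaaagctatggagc
Greb1: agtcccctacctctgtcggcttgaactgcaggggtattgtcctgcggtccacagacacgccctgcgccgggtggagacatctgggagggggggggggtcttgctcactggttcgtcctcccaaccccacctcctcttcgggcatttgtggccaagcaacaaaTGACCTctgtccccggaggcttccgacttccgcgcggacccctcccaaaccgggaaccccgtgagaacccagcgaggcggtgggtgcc
The AGGTCA match stood 88 to 83 bases before this Greb1 start, on the opposite strand. None was in the Pgr window or in the other Greb1 window (chr12:16757240-16757489). Over all members it was in 2 of 12 windows (the other one belongs to Cyp19a1, chr9:54268165-54268414), and it was in 14.0% of 32851 RefSeq windows of this length. The full palindrome GGTCANNNTGACC was in 0 of 12 member windows and in 0.0639% of all windows, and each palindrome holds the last 5 bases of AGGTCA on both of its arms. These are matches of letters in short windows and say nothing of binding.

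The SD library held 9295 cells and 132191585 unique molecular identifiers (UMIs, each standing for 1 captured RNA molecule) over all its barcodes, and the SD+RS library held 7412 cells and 123500649 UMIs. Neurons, recognised by clusters carrying the markers Snap25, Syt1, Rbfox3, Stmn2, Elavl4 and Uchl1, numbered 3866 and 4295, with medians of 21887 and 21214 UMIs per cell, and were 41.6% and 57.9% of cells. The libraries shared 20 cell barcodes. They also differed in the mix of the sexes: neurons with Xist, the transcript of the inactive X chromosome, and no Y-linked UMI numbered 1340 and 3163, and neurons with UMIs of Ddx3y, Uty, Kdm5d or Eif2s3y and no Xist numbered 2115 and 924. The first set, called Xist-only neurons, made up 38.8% (SD) and 77.4% (SD+RS) of neurons with a call, the second is called Y-linked-only, and 254 and 132 neurons had both. With 1 library per condition there is no replicate, so no test of a difference was made. Intervals are exact 95% intervals (Poisson for levels, Clopper-Pearson for shares, conditional binomial for ratios), they cover counting error only, and differences between animals or libraries cannot be told apart from the 2 h of sleep.

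Over all neurons, Esr1 was higher in the SD+RS library, and Pgr, Greb1 and Cyp19a1 were lower. Levels are given as UMIs per 1000000 UMIs of the neurons (CPM), with the SD library first, and ratios as log2 of SD+RS over SD. Esr1 stood at 21.4 CPM (20.5 to 22.4) and 32.0 CPM (30.9 to 33.1), a log2 ratio of 0.58 (0.50 to 0.66). Pgr stood at 41.8 CPM (40.4 to 43.1) and 27.8 CPM (26.8 to 28.9), a log2 ratio of -0.59 (-0.66 to -0.52). The Poisson intervals of the 2 libraries did not overlap for either receptor. Greb1 stood at 14.3 and 7.04 CPM (log2 ratio -1.02, -1.16 to -0.89), and Cyp19a1, from only 173 and 91 UMIs, at 1.93 and 0.929 CPM (-1.05, -1.43 to -0.68). Prlr, at 163.5 and 154.6 CPM, differed little (-0.08, -0.11 to -0.05), and Esr2, with 164 UMIs in each library, stood at 1.82 and 1.67 CPM (-0.12, -0.45 to 0.20).

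Of the 6 members, 3 (Pgr, Greb1 and Cyp19a1) were more than 1.5 times lower in the SD+RS library, where 1.51% of the 13813 genes with at least 50 UMIs in each library were that much lower. None was more than 1.5 times higher, where 0.753% of genes were, and Esr1, at 1.49-fold, was just inside that limit while Pgr, at 0.665-fold, was just outside it. The count of 3 depends on the mix of the sexes: with Xist-only and Y-linked-only neurons weighted equally, the log2 ratio was -0.34 for Pgr, -0.18 for Greb1 and -0.55 for Cyp19a1, none of them past 1.5 times. Cyp19a1 had the 35th and Greb1 the 38th lowest ratio of these genes, and Esr1 the 106th highest.

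The share of neurons with at least 1 UMI was higher in the SD+RS library for Esr1 and lower for Pgr, Greb1 and Cyp19a1. Esr1 was found in 22.8% of SD neurons (21.5 to 24.2) and 29.4% of SD+RS neurons (28.1 to 30.8), and Pgr in 48.4% (46.9 to 50.04) and 38.8% (37.3 to 40.2). Greb1 was found in 14.3% and 8.69%, Cyp19a1 in 3.18% and 1.82%, Esr2 in 2.97% and 3.10%, and Prlr in 68.4% and 69.4%. Brought to 5000 UMIs per neuron, which left out 123 and 57 shallower neurons, the shares were 8.03% and 12.1% for Esr1, 16.7% and 11.7% for Pgr, 5.57% and 2.95% for Greb1 and 42.8% and 42.6% for Prlr. A share of this kind is set by depth as well as by level.

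Glia had few of these transcripts, and whether their UMIs are stray RNA or expression was not tested. Astrocytes (2095 and 1274 cells, medians of 3444 and 3140.5 UMIs) held a Prlr UMI in 3.96% and 1.41% of cells and a Pgr UMI in 1.19% and 0.392%. At 2000 UMIs per cell, Prlr was found in 24.0% and 23.4% of neurons but in 2.23% and 0.922% of astrocytes, Pgr in 7.39% and 5.03% of neurons but in 0.735% and 0.211% of astrocytes, and Esr1 in 3.56% and 5.59% of neurons but in 0.411% and 0.291% of astrocytes. Esr2 and Cyp19a1, the scarcest members, had 2 UMIs each in SD astrocytes and 0 in SD+RS astrocytes, which, taking 3 counts as the limit, allows up to 0.235% of those cells to hold a UMI and sets no limit on cells that express the gene. Prlr was found in 6.22% and 2.91% of oligodendrocytes, and in 3.03% and 3.43% of oligodendrocyte precursors, from 8 and 6 UMIs. The astrocyte shares with Prlr and Pgr were lower in the SD+RS library, and the part of stray RNA in the neuronal levels was not tested.

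**Figure D1:**
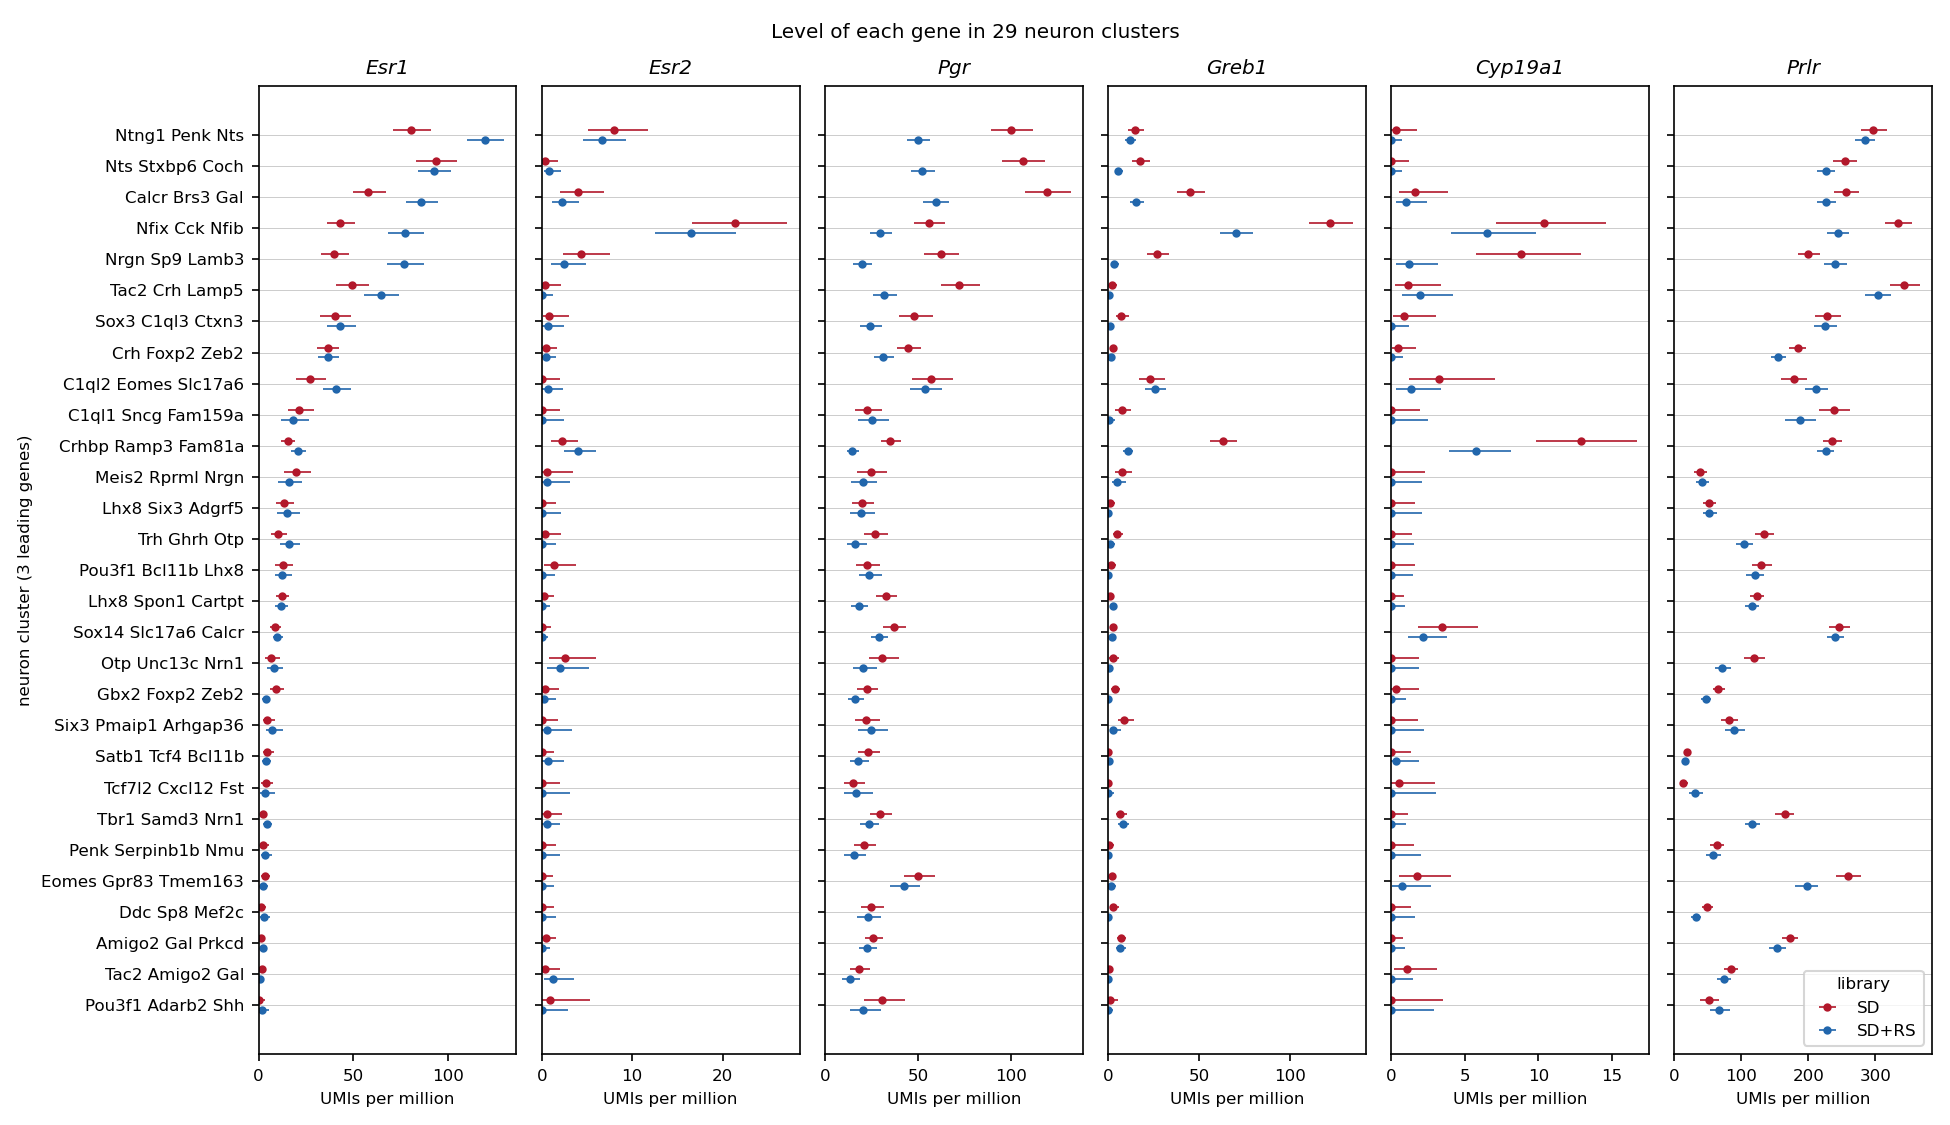
Level of each gene, in CPM (x axes), in 29 neuron clusters named by their 3 leading genes (y axis), with exact Poisson intervals, in the SD and SD+RS libraries. Esr2, Greb1 and Cyp19a1 were high in a few clusters (Greb1 reached 122 CPM in the Nfix Cck Nfib cluster of the SD library), while Pgr and Prlr were found in all 29.

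The neurons fell into 41 clusters, built without the 6 genes and without other nuclear receptor genes, and the 29 with at least 50 neurons in each library are described and named by their 3 leading genes. Esr1 was concentrated in GABA neurons, which carry the vesicular transporter Slc32a1. Its highest levels were in the Nts Stxbp6 Coch cluster, at 93.5 CPM (83.0 to 105) and 92.7 CPM (84.3 to 102), and in the Ntng1 Penk Nts cluster, at 80.6 CPM (71.0 to 91.2) and 119.7 CPM (110 to 130). These clusters had Esr1 UMIs in 81.3% and 80.5%, and in 79.1% and 91.0%, of their neurons. Their intervals overlapped under SD but not under SD+RS. The next were Calcr Brs3 Gal neurons at 57.9 and 85.9 CPM, Nfix Cck Nfib neurons at 43.1 and 77.4 CPM and Nrgn Sp9 Lamb3 neurons at 39.9 and 77.0 CPM, and in the SD+RS library the intervals of these 3 clusters overlapped. The Pou3f1 Adarb2 Shh cluster had 0 and 2 Esr1 UMIs and the Tac2 Amigo2 Gal cluster had 5 and 2.

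The Esr1 ratio was not the same in all clusters. Of 17 clusters with at least 20 Esr1 UMIs in each library, 12 were higher in the SD+RS library, 4 of them by more than 1.5 times, and 5 were lower, none by that much. The highest ratios were in the Nrgn Sp9 Lamb3 (0.95, 0.63 to 1.28), Nfix Cck Nfib (0.84, 0.54 to 1.15) and Trh Ghrh Otp clusters (0.65, -0.10 to 1.42). The lowest were in the Meis2 Rprml Nrgn (-0.30), C1ql1 Sncg Fam159a (-0.23) and Lhx8 Spon1 Cartpt clusters (-0.08), each with an interval that held 0. The mix of the sexes differed within clusters: Nrgn Sp9 Lamb3 had 23 Xist-only and 91 Y-linked-only neurons under SD but 164 and 4 under SD+RS. In Xist-only neurons 9 clusters met the count, 6 higher and 3 lower. Of these, 1 had an interval above 0, and the highest ratio was 0.67. In Y-linked-only neurons 6 clusters met it and all 6 were higher, 3 with intervals above 0, up to 0.97. With each cluster given the same weight in both libraries, the Esr1 ratio over all neurons was 0.37 in place of 0.58.

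Esr2 was held mainly by a pair of clusters that also had Esr1. Nfix Cck Nfib neurons had 21.4 CPM (16.6 to 27.1) and 16.5 CPM (12.5 to 21.5), and they alone held 41.5% and 34.1% of all neuronal Esr2 UMIs. Ntng1 Penk Nts neurons followed at 7.96 and 6.63 CPM, and although their level was lower, Esr2 was found in 22.0% and 19.2% of them, against 20.8% and 15.8% of Nfix Cck Nfib neurons. Nrgn Sp9 Lamb3 (4.39 and 2.46 CPM), Calcr Brs3 Gal (3.97 and 2.28) and Crhbp Ramp3 Fam81a neurons (2.19 and 3.96) came next, with intervals that overlapped in both libraries. Esr2 had 0 UMIs in 10 and 13 of the 29 clusters.

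Pgr had UMIs in all 29 clusters. Its highest SD levels were 119 CPM (107 to 132) in Calcr Brs3 Gal neurons, 106 CPM (95.2 to 118) in Nts Stxbp6 Coch neurons and 100 CPM (89.3 to 112) in Ntng1 Penk Nts neurons, and their intervals overlapped. In the SD+RS library the same clusters had 59.5, 52.3 and 50.01 CPM, with log2 ratios of -1.0 (-1.23 to -0.78), -1.02 (-1.27 to -0.78) and -1.0 (-1.25 to -0.76). The highest glutamate cluster, C1ql2 Eomes Slc17a6, had 57.1 and 53.8 CPM (-0.09, -0.45 to 0.28), and it stood in the fourth place over both libraries ahead of Tac2 Crh Lamp5 neurons (72.2 and 31.8 CPM). Of 29 clusters, 25 had a lower Pgr level in the SD+RS library, 10 of them by more than 1.5 times, and none was higher by that much. The lowest ratios were in the Nrgn Sp9 Lamb3 (-1.66), Crhbp Ramp3 Fam81a (-1.25) and Tac2 Crh Lamp5 (-1.18) clusters. The highest were in the Six3 Pmaip1 Arhgap36 (0.17), C1ql1 Sncg Fam159a (0.15) and Tcf7l2 Cxcl12 Fst (0.14) clusters, each with an interval that held 0.

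Greb1, which encodes a protein that binds estrogen receptor α, had 3 clusters that together held 63.1% of its SD UMIs. Nfix Cck Nfib neurons had 122 CPM (110 to 135) and 70.0 CPM (61.4 to 79.5), a log2 ratio of -0.80 (-1.04 to -0.56). Crhbp Ramp3 Fam81a neurons had 63.1 CPM (56.0 to 70.8) and 10.8 CPM (8.25 to 13.9), a log2 ratio of -2.54 (-2.97 to -2.14). Calcr Brs3 Gal neurons had 45.0 and 15.6 CPM (-1.53, -1.96 to -1.11). The glutamate cluster C1ql2 Eomes Slc17a6 went from 23.2 to 25.6 CPM (0.14, -0.42 to 0.71), and Nrgn Sp9 Lamb3 neurons from 26.7 to 3.39 CPM, the latter from 11 UMIs. Among clusters with lower levels, Nts Stxbp6 Coch neurons had 17.7 and 5.77 CPM (-1.62, -2.33 to -0.94), Amigo2 Gal Prkcd neurons 6.92 and 6.75 CPM (-0.03, -0.83 to 0.76) and Tbr1 Samd3 Nrn1 neurons 6.73 and 8.09 CPM (0.27, -0.58 to 1.14). The mix of the sexes differed within these clusters: Crhbp Ramp3 Fam81a had 48 Xist-only and 129 Y-linked-only neurons under SD but 251 and 16 under SD+RS. Within the sets its ratio was -0.82 and -1.37 in place of -2.54, and the Nfix Cck Nfib ratio was -1.49 and 0.49 in place of -0.80. Of 8 clusters with at least 20 Greb1 UMIs in each library, 6 were lower in the SD+RS library, 4 of them by more than 1.5 times.

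Aromatase had UMIs in the fewest clusters of the 6 genes: of 29 clusters, 15 had 0 UMIs under SD and 20 under SD+RS. Such a count depends on total UMIs, which were 173 and 91 for Cyp19a1 and 164 in each library for Esr2. The cluster with the most UMIs held 34.1% and 35.2% of them for Cyp19a1, and 41.5% and 34.1% for Esr2. Crhbp Ramp3 Fam81a neurons had 12.9 CPM (9.83 to 16.7) and 5.77 CPM (3.94 to 8.14), with Cyp19a1 in 20.1% and 10.7% of neurons (log2 ratio -1.16, -1.83 to -0.52). Nfix Cck Nfib neurons had 10.4 and 6.50 CPM (-0.68, -1.52 to 0.15), and Nrgn Sp9 Lamb3 neurons 8.79 and 1.23 CPM, from 26 and 4 UMIs. Only then came glutamate clusters, Sox14 Slc17a6 Calcr (3.44 and 2.17 CPM) and C1ql2 Eomes Slc17a6 (3.23 and 1.33 CPM). The first 3 clusters held 68.2% of Cyp19a1 UMIs in the SD library. All 3 were GABA clusters, and their intervals overlapped in that library. The mix of the sexes differed within them: Crhbp Ramp3 Fam81a had 48 Xist-only and 129 Y-linked-only neurons under SD but 251 and 16 under SD+RS. Nrgn Sp9 Lamb3 had 23 and 91, then 164 and 4. With 0 clusters at 20 or more Cyp19a1 UMIs in each library within either set, no cluster ratio within a set is given. Whether these cluster ratios follow the mix of the sexes was not tested.

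Prlr was the most widespread member. Its highest levels were in Tac2 Crh Lamp5 neurons, at 343 CPM (321 to 366) and 303 CPM (284 to 324), followed over both libraries by Ntng1 Penk Nts (297 and 284), Nfix Cck Nfib (334 and 244), Sox14 Slc17a6 Calcr (246 and 240) and Calcr Brs3 Gal neurons (257 and 227). Its lowest were in Satb1 Tcf4 Bcl11b neurons (18.8 and 16.2 CPM) and Tcf7l2 Cxcl12 Fst neurons (13.5 and 30.8). Prlr was lower in the SD+RS library in 22 of 29 clusters, 2 of them by more than 1.5 times (Otp Unc13c Nrn1, -0.73, and Ddc Sp8 Mef2c, -0.61), followed by Tbr1 Samd3 Nrn1 (-0.50, -0.69 to -0.32). It was higher by that much only in the Tcf7l2 Cxcl12 Fst cluster (1.19, 0.42 to 1.99), which had 25 and 37 UMIs, followed by Pou3f1 Adarb2 Shh (0.37, -0.14 to 0.89) and Nrgn Sp9 Lamb3 (0.26, 0.10 to 0.42).

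**Figure D2:**
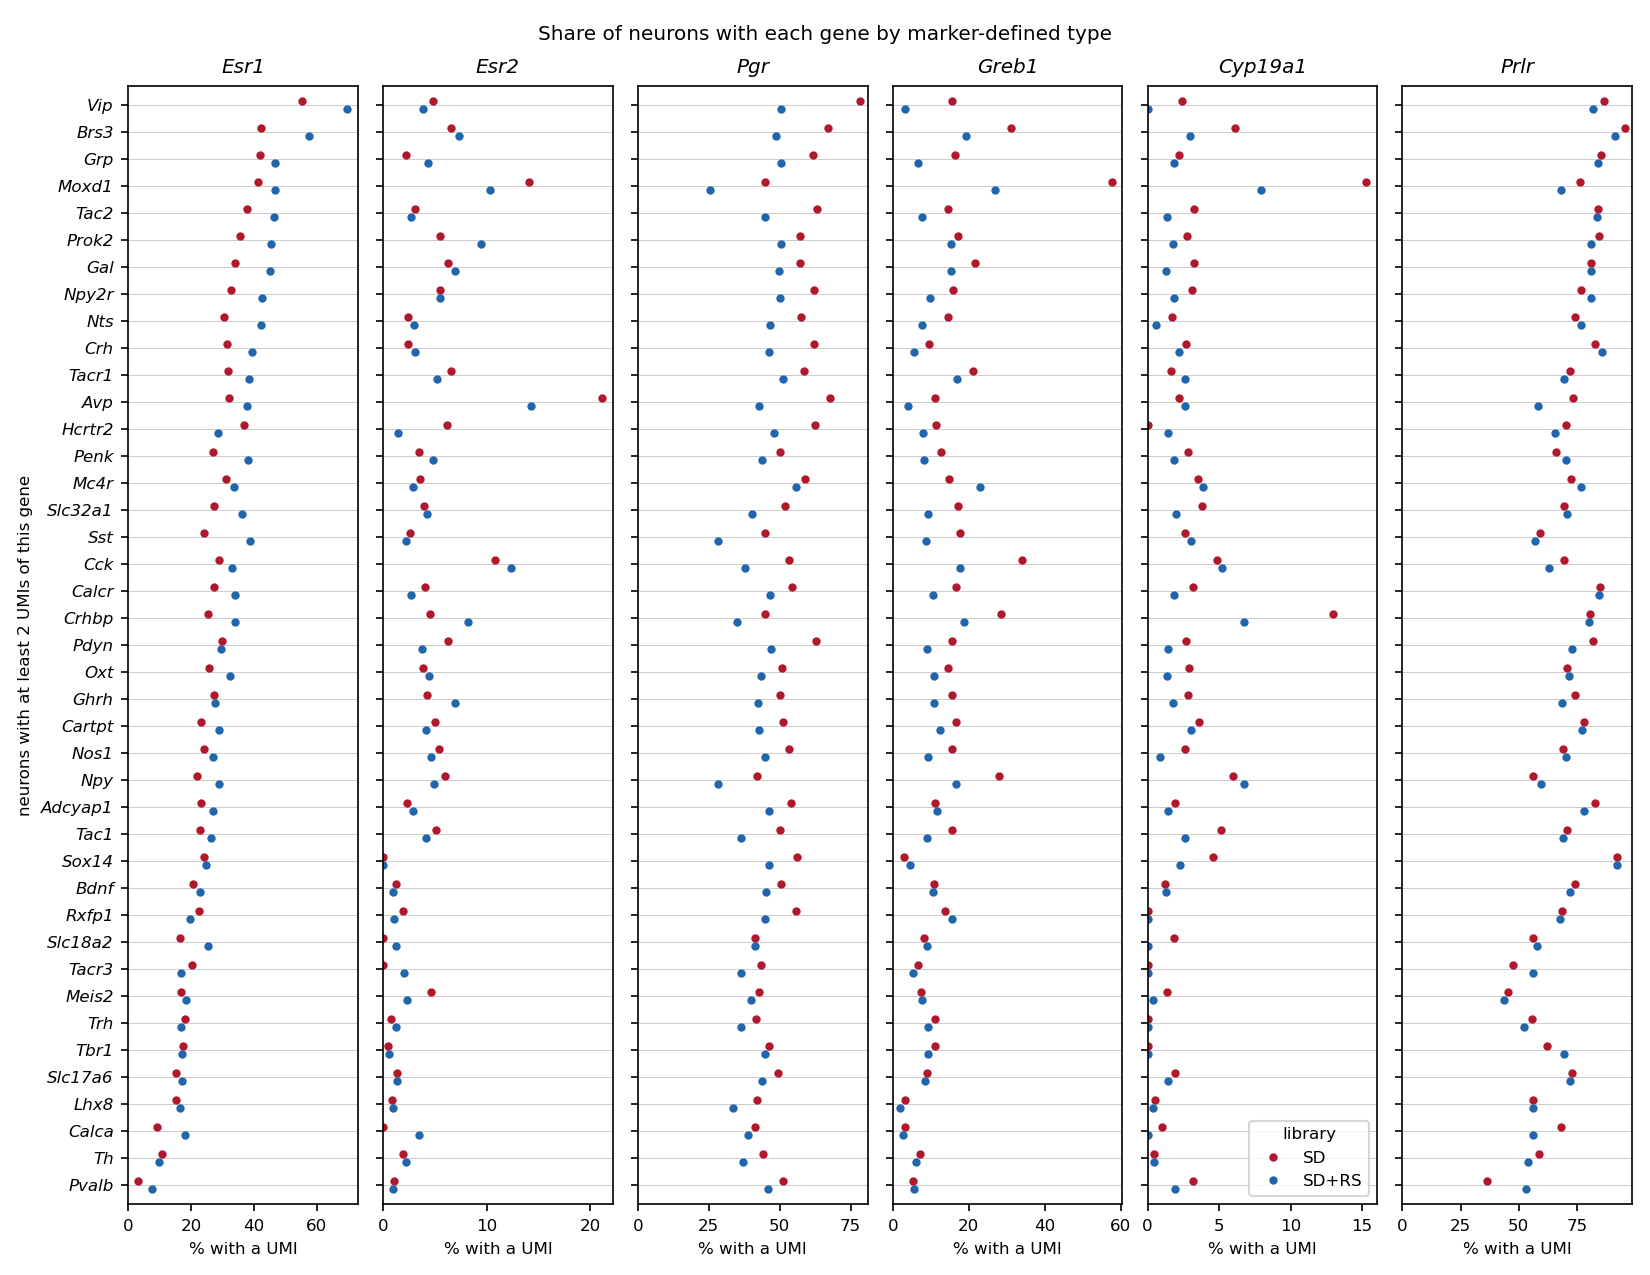
Share of neurons with at least 1 UMI of each gene (x axes, percent) among neurons with at least 2 UMIs of the marker named on the y axis, in the SD and SD+RS libraries. Vip neurons had the highest share with Esr1 (55.4% and 69.8%), Avp neurons with Esr2 and Moxd1 neurons with Greb1 and Cyp19a1.

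Neurons were also grouped by single markers, with at least 2 UMIs of the marker, into 41 overlapping types. Vip neurons (83 and 129), which make vasoactive intestinal peptide, had the highest share with Esr1, 55.4% and 69.8%, and a Pgr share of 78.3% and 50.4%. Brs3 neurons (261 and 370), which carry a bombesin receptor, came second for Esr1 (42.1% and 57.6%), and Grp (42.1% and 46.6%), Moxd1 (41.2% and 46.8%) and Tac2 neurons (37.8% and 46.3%) followed. For Pgr, Brs3 (67.0% and 48.6%), Mc4r (58.9% and 55.8%), Grp (61.7% and 50.3%) and Npy2r neurons (61.9% and 49.9%) followed Vip neurons. For Prlr, Brs3 (95.8% and 91.6%), Sox14 (92.4% and 92.1%), Calcr (85.2% and 84.4%), Grp (85.2% and 84.0%) and Vip neurons (86.7% and 82.2%) had the highest shares. Calcr neurons are known for parental behaviour.

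The less common members singled out other types. Esr2 was found in 21.1% and 14.3% of Avp neurons (90 and 77), which make vasopressin (6.64% and 3.92% with at least 1 UMI of Avp, 37.8% and 24.1% with at least 5), then in 14.1% and 10.3% of Moxd1 neurons, 10.8% and 12.4% of Cck neurons, 5.45% and 9.41% of Prok2 neurons and 6.51% and 7.30% of Brs3 neurons. Moxd1 neurons (85 and 126) also led for Greb1, with 57.6% and 27.0%, and for Cyp19a1, with 15.3% and 7.94%. Moxd1 is known as a marker of the sexually dimorphic nucleus of the preoptic area. Greb1 was found next in Cck (34.1% and 17.6%), Brs3 (31.0% and 19.2%), Crhbp (28.6% and 18.8%) and Npy neurons (28% and 16.6%), and Cyp19a1 in Crhbp (13% and 6.73%), Npy (6.00% and 6.75%), Cck (4.88% and 5.19%) and Brs3 neurons (6.13% and 2.97%). The 2-UMI rule does not give a clean type for very abundant peptides: 857 and 603 neurons met it for Oxt, while the Oxt Avp H2-K1 cluster held 47 and 45.

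By transmitter, GABA neurons (Slc32a1) had higher levels of Esr1, Esr2, Greb1 and Cyp19a1 than glutamate neurons (Slc17a6) in both libraries. Esr1 stood at 27.2 and 40.9 CPM in Slc32a1 neurons and at 9.15 and 12.8 CPM in Slc17a6 neurons. Esr2 stood at 2.36 and 2.27 against 0.586 and 0.568 CPM, Greb1 at 17.2 and 7.53 against 6.21 and 5.65 CPM, and Cyp19a1 at 2.25 and 0.949 against 0.977 and 0.675 CPM. Prlr was closer, at 169 and 163 against 159 and 139 CPM. Pgr stood at 46.9 CPM in Slc32a1 and 32.6 CPM in Slc17a6 neurons of the SD library, and at 28.8 and 28 CPM in those of the SD+RS library.

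**Figure D3:**
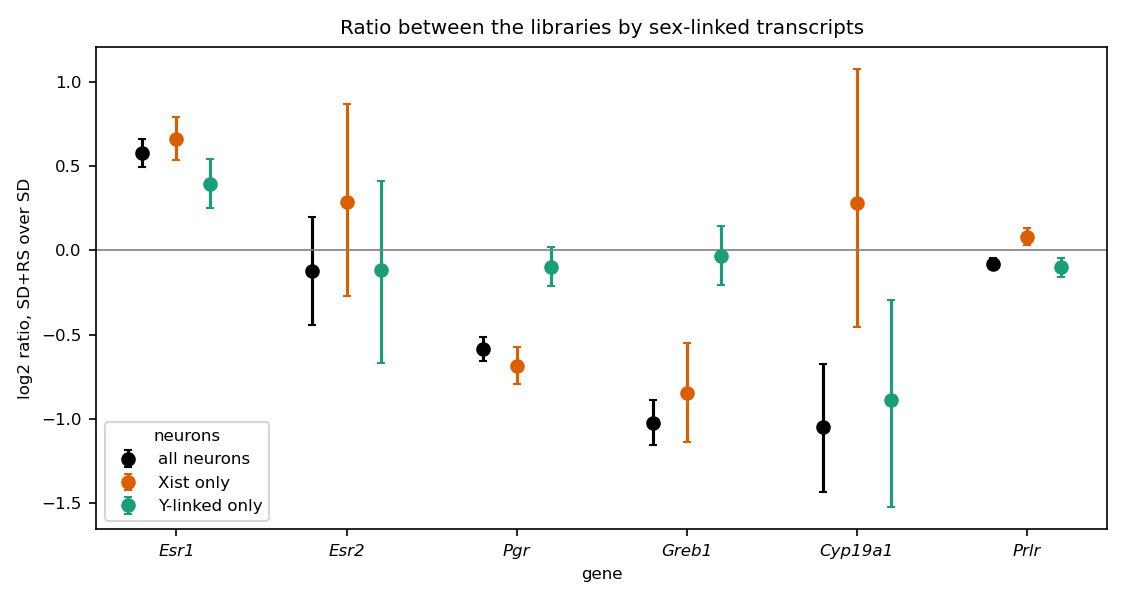
Log2 ratio of SD+RS over SD for each gene (y axis) in all neurons, in neurons with Xist UMIs only and in neurons with Y-linked UMIs only, with exact 95% intervals. Pgr and Greb1 lay below 0 in Xist-only neurons (-0.69 and -0.85) and near 0 in Y-linked-only neurons (-0.10 and -0.03), while Esr1 lay above 0 in both.

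Because the libraries differed in the mix of the sexes, each ratio was taken within Xist-only and within Y-linked-only neurons. In Xist-only neurons, Pgr stood at 37.6 CPM (35.5 to 39.8) after SD and 23.4 CPM (22.2 to 24.5) after SD+RS, a log2 ratio of -0.69 (-0.80 to -0.58). In Y-linked-only neurons it stood at 43.6 and 40.7 CPM, a ratio of -0.10 (-0.21 to 0.02). The intervals of these 2 ratios did not overlap. Greb1 stood at 5.56 and 3.10 CPM in Xist-only neurons (-0.85, -1.14 to -0.55) and at 18.6 and 18.2 CPM in Y-linked-only neurons (-0.03, -0.21 to 0.14), and these intervals did not overlap either. In Xist-only neurons 2 of 6 members (Pgr and Greb1) were more than 1.5 times lower, against 1.35% of 12273 genes, and Esr1 was more than 1.5 times higher, against 0.611%. Esr2 and Cyp19a1, with 37 and 21 UMIs under SD, were not among these 12273 genes, which had at least 50 UMIs on both sides. In Y-linked-only neurons Cyp19a1, with 125 and 29 UMIs, was more than 1.5 times lower, but with under 50 UMIs on one side it was not among the 11721 genes of which 1.13% were that much lower and 1.25% that much higher. No member was more than 1.5 times higher there.

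Esr1 was higher in the SD+RS library in both sets, from 20.7 to 32.7 CPM in Xist-only neurons (0.66, 0.54 to 0.79) and from 21.5 to 28.2 CPM in Y-linked-only neurons (0.40, 0.25 to 0.54). With each cluster weighted by its share over both libraries, these ratios were 0.16 and 0.24. Prlr stood at 142.9 and 151.2 CPM in Xist-only neurons (0.08, 0.03 to 0.13) and at 175.7 and 163.9 CPM in Y-linked-only neurons (-0.10, -0.16 to -0.04). Cyp19a1 stood at 0.679 and 0.827 CPM (0.28, -0.46 to 1.08) and at 2.54 and 1.37 CPM (-0.89, -1.53 to -0.30). Esr2 stood at 1.20 and 1.46 CPM (0.28, -0.27 to 0.87) and at 2.16 and 1.99 CPM (-0.12, -0.67 to 0.41).

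Within each library, Greb1, Cyp19a1, Pgr, Prlr and Esr2 had lower levels in Xist-only than in Y-linked-only neurons. The log2 ratio of Xist-only over Y-linked-only neurons for Greb1 was -1.74 (-1.99 to -1.51) under SD and -2.56 (-2.80 to -2.32) under SD+RS. It was the fourth lowest of 12270 genes in the SD library, where 0.733% were more than 1.5 times lower, and the second lowest of 11717 in the SD+RS library, where 1.35% were. For Cyp19a1 the ratio was -1.90 (-2.65 to -1.23) and -0.73 (-1.40 to -0.04). For Pgr it was -0.21 (-0.32 to -0.11) under SD and -0.80 (-0.92 to -0.68) under SD+RS. For Prlr it was -0.30 (-0.35 to -0.25) and -0.12 (-0.17 to -0.06). For Esr2 it was -0.85 (-1.43 to -0.30) and -0.45 (-0.98 to 0.10), and the SD+RS interval held 0. Esr1 had -0.05 (-0.20 to 0.09) and 0.21 (0.08 to 0.34). The sets hold unlike shares of the clusters: in the SD library the Nfix Cck Nfib cluster had 22 Xist-only and 119 Y-linked-only neurons, and the Crhbp Ramp3 Fam81a cluster 48 and 129. Within these clusters the Greb1 ratio of Xist-only over Y-linked-only neurons was -0.59 (-1.15 to -0.08) and -2.57 (-3.01 to -2.14) in Nfix Cck Nfib neurons of the SD and SD+RS libraries, and -2.30 (-3.13 to -1.57) and -1.74 (-2.71 to -0.65) in Crhbp Ramp3 Fam81a neurons.

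**Figure D4:**
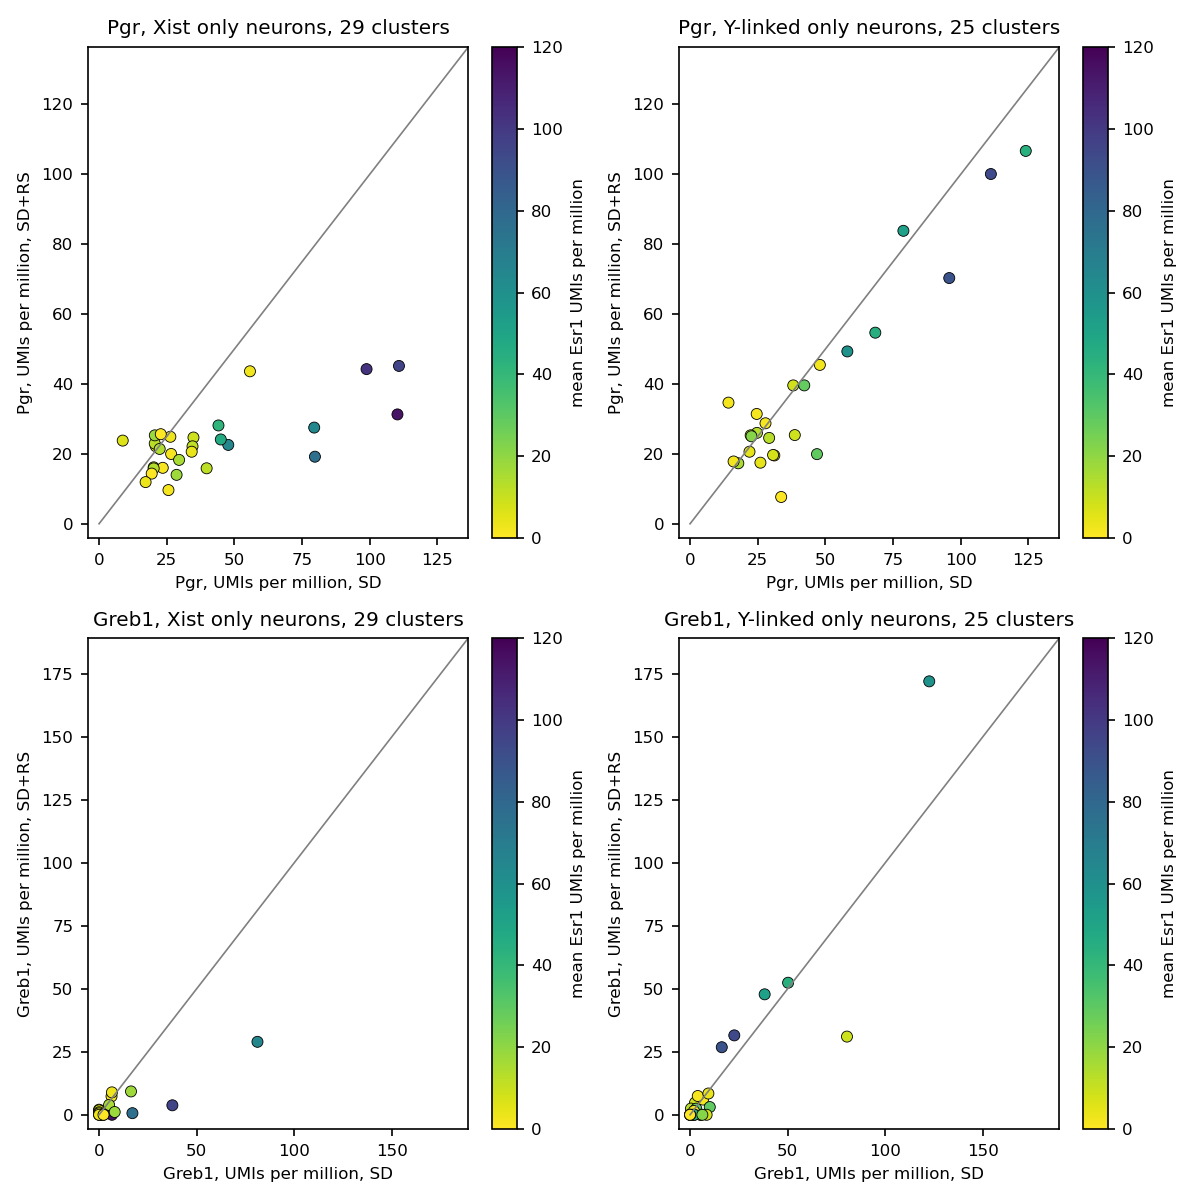
Level of Pgr and of Greb1 in the SD library (x axes) against the SD+RS library (y axes), in CPM, for neuron clusters with at least 10 neurons of the set in each library, in Xist-only and Y-linked-only neurons, coloured by the mean Esr1 level of the cluster. Pgr lay below the line of equal levels in 24 of 29 clusters of Xist-only neurons and in 16 of 25 clusters of Y-linked-only neurons. Greb1 lay below it in 18 of 29 and in 13 of 25.

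Within single clusters, the Pgr ratio of Xist-only neurons was lower in most clusters with much Esr1 than in clusters with little. Calcr Brs3 Gal neurons (36 and 135 Xist-only neurons) went from 111 to 45.2 CPM (-1.29, -1.65 to -0.94), while their 58 and 38 Y-linked-only neurons stood at 124 and 107 CPM (-0.22, -0.56 to 0.12). Nts Stxbp6 Coch neurons (33 and 162) went from 98.8 to 44.3 CPM (-1.16, -1.54 to -0.77), and their Y-linked-only neurons (59 and 17) stood at 111 and 100.1 CPM (-0.15, -0.61 to 0.29). In the SD library the log2 ratio of Pgr in Xist-only over Y-linked-only neurons was -0.16 (-0.50 to 0.17) and -0.17 (-0.55 to 0.21) in these clusters, with intervals that held 0. In the SD+RS library it was -1.24 (-1.60 to -0.88) and -1.18 (-1.62 to -0.71).

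Pgr was also lower in Xist-only neurons of further Esr1-rich clusters, though in Ntng1 Penk Nts it was lower in Y-linked-only neurons too. Ntng1 Penk Nts neurons, with only 13 Xist-only neurons under SD and 71 under SD+RS, went from 110 to 31.3 CPM of Pgr (-1.82, -2.36 to -1.27), against 95.8 and 70.3 CPM in Y-linked-only neurons (-0.45, -0.76 to -0.13). Xist-only Nrgn Sp9 Lamb3 neurons went from 79.8 to 19.2 CPM (-2.05, -2.65 to -1.45), Tac2 Crh Lamp5 neurons from 79.5 to 27.5 CPM (-1.53, -2.00 to -1.06) and Nfix Cck Nfib neurons from 47.7 to 22.6 CPM (-1.08, -1.85 to -0.26). Under SD+RS these clusters held 4, 10 and 45 Y-linked-only neurons, and their Pgr ratios in Y-linked-only neurons are not given. For genes with at least 20 UMIs on both sides, 5.77% in Calcr Brs3 Gal, 5.13% in Nts Stxbp6 Coch, 7.63% in Ntng1 Penk Nts, 5.62% in Nrgn Sp9 Lamb3 and 6.85% in Nfix Cck Nfib Xist-only neurons were more than 1.5 times lower. Pgr was past that limit in all 5.

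Of the clusters with little Esr1, those with the Pgr ratios closest to or above 0 in Xist-only neurons were chosen after their values were seen: the ratio was -0.08 in Tbr1 Samd3 Nrn1, -0.06 in Lhx8 Six3 Adgrf5, 0.08 in Ddc Sp8 Mef2c and 0.16 in Pou3f1 Bcl11b Lhx8 neurons, each with an interval that held 0. Over the 22 clusters with at least 20 Pgr UMIs in Xist-only neurons of each library, 20 had a lower Pgr level in the SD+RS library, 12 of them by more than 1.5 times, and the median log2 ratio was -0.64. The median was -1.23 (range -2.05 to -0.65) in the 8 clusters with at least 40 CPM of Esr1 and -0.43 (range -1.32 to 0.16) in the 14 below. As a description across clusters, which share libraries and depth, the log2 Esr1 level and the Pgr ratio had a Pearson r of -0.73 and a Spearman rho of -0.74. In Y-linked-only neurons 11 clusters met the count, 8 were lower, 1 by more than 1.5 times, and r was -0.14 and rho -0.17. The Esr1 limit of 40 CPM was set with these values in view.

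Of these clusters, Calcr Brs3 Gal and Nfix Cck Nfib also had lower Greb1 in Xist-only neurons under SD+RS. In Calcr Brs3 Gal neurons Greb1 went from 37.6 CPM (40 UMIs) to 3.76 CPM (13 UMIs) in Xist-only neurons (-3.32, -4.35 to -2.39) and stood at 50.2 and 52.4 CPM in Y-linked-only neurons (0.06, -0.46 to 0.57). In Nfix Cck Nfib neurons it went from 81.2 to 28.95 CPM in Xist-only neurons (-1.49, -2.10 to -0.85) and from 122.5 to 172.0 CPM in Y-linked-only neurons (0.49, 0.18 to 0.79). Ntng1 Penk Nts neurons had 3 and 0 Greb1 UMIs in Xist-only neurons, too few for a ratio, and 16.3 and 26.8 CPM in Y-linked-only neurons (0.72, 0.09 to 1.37). In Y-linked-only neurons of these 3 clusters no ratio was below 0. The Crhbp Ramp3 Fam81a cluster went the other way, from 80.4 to 31.0 CPM in Y-linked-only neurons (-1.37, -2.39 to -0.51), but with 129 such neurons under SD and 16 under SD+RS. Its Xist-only neurons stood at 16.4 and 9.27 CPM (-0.82, -1.67 to 0.10). Over all clusters with at least 10 neurons of the set in each library, Greb1 was lower under SD+RS in 18 of 29 (9 higher) in Xist-only neurons. In Y-linked-only neurons it was lower in 13 of 25 (8 higher). Only 1 cluster of Xist-only neurons had at least 20 Greb1 UMIs in each library. In Y-linked-only neurons 4 clusters did, and all 4 were higher under SD+RS.

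The glutamate cluster C1ql2 Eomes Slc17a6 had a different pattern, with levels that differed between the sets in both libraries. Its Y-linked-only neurons had 37.0 and 67.7 CPM of Esr1, 78.8 and 83.8 CPM of Pgr and 38.2 and 47.8 CPM of Greb1, and its Xist-only neurons 12.3 and 10.8, 34.5 and 22.2, and 0 and 2.01 CPM. The log2 ratio of Xist-only over Y-linked-only neurons was -1.59 (-2.78 to -0.52) and -2.65 (-3.52 to -1.88) for Esr1 and -1.19 (-1.88 to -0.53) and -1.92 (-2.52 to -1.35) for Pgr. The cluster held 42 and 80 Xist-only and 36 and 59 Y-linked-only neurons. Calcr Brs3 Gal neurons went the opposite way for Esr1, with 91.1 and 101 CPM in Xist-only and 39.7 and 47.6 CPM in Y-linked-only neurons (1.20, 0.73 to 1.68, and 1.09, 0.65 to 1.54).

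Neurons were also split by whether they held an Esr1 UMI. Among Xist-only neurons with an Esr1 UMI (285 and 939), Pgr went from 69.2 to 31.8 CPM (-1.12, -1.29 to -0.96) and Greb1 from 13.6 to 4.76 CPM (-1.51, -1.92 to -1.11). Among those without one (1055 and 2224), Pgr went from 27.6 to 19.5 CPM (-0.50, -0.65 to -0.35) and Greb1 from 3.02 to 2.33 CPM (-0.37, -0.81 to 0.07). Among Y-linked-only neurons with an Esr1 UMI (496 and 248), Pgr stood at 76.4 and 69.7 CPM (-0.13, -0.29 to 0.03), and Greb1 at 37.3 and 46.4 CPM (0.31, 0.11 to 0.52). Among those without one, Pgr had a ratio of -0.18 (-0.35 to -0.01) and Greb1 of -1.13 (-1.50 to -0.77). With an Esr1 UMI both genes thus had the lower ratio in Xist-only neurons, while without one this held for Pgr and was the other way round for Greb1. Since a missing Esr1 UMI does not show a missing receptor, the strata overlap in their true content.

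**Figure D5:**
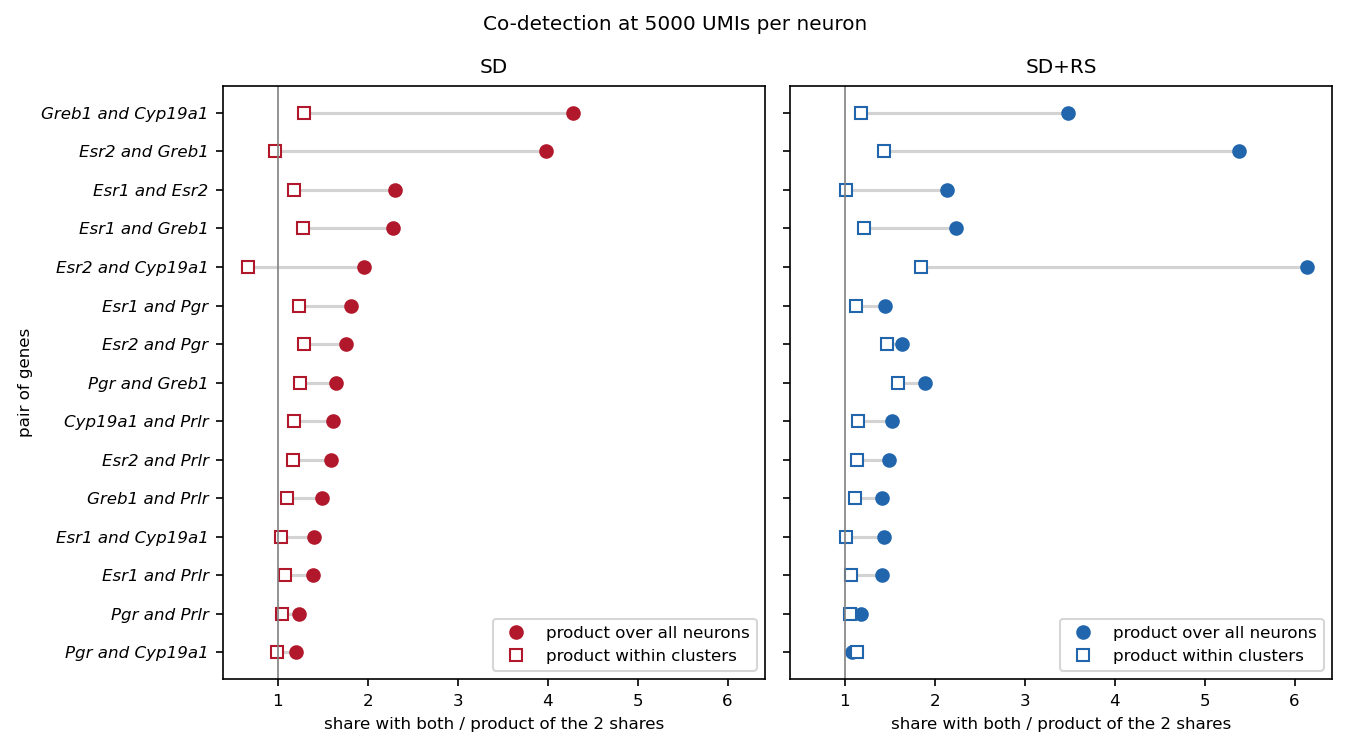
Share of neurons with UMIs of both genes divided by the product of the 2 shares (x axes), for 15 pairs of genes at 5000 UMIs per neuron in each library. Filled points use the product over all neurons and open squares the product summed within clusters, and most pairs lay nearer to 1 within clusters (Esr1 and Pgr went from 1.81 to 1.24 in the SD library).

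Receptors were found in the same neurons more often than their shares alone would give. At full depth, 70.5% of SD neurons with an Esr1 UMI also had Pgr (67.4 to 73.5), against 41.9% of those without (40.1 to 43.7), and in the SD+RS library 51.4% and 33.5%. Greb1 was found in 32.3% and 8.95% of SD neurons with and without Esr1 and in 17.8% and 4.88% of SD+RS neurons. Prlr was found in 86.2% and 63.1%, and in 87.0% and 62.0%. Deeper cells show more of every gene, so pairs were also counted at 5000 UMIs per neuron, over 3743 and 4238 neurons.

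At that depth the share with both Esr1 and Pgr was 1.81 times the product of the 2 shares under SD and 1.45 times under SD+RS, and 1.24 and 1.12 times when the product was taken within each cluster. Esr1 with Greb1 gave 2.28 and 2.23, and 1.28 and 1.21 within clusters. Greb1 with Cyp19a1, at 4.29 and 3.48, and Greb1 with Esr2, at 3.98 and 5.38, had the highest ratios apart from Esr2 with Cyp19a1 in the SD+RS library. That pair rested on an expected 0.97 neurons with both. Greb1 with Cyp19a1 and Greb1 with Esr2 also rested on few, an expected 8.64 and 2.22, and 6.16 and 4.90. Within clusters Greb1 with Cyp19a1 gave 1.29 and 1.17, and Greb1 with Esr2 gave 0.97 and 1.43. Pgr with Greb1 gave 1.64 and 1.89, and 1.25 and 1.59 within clusters. Pgr with Cyp19a1 was nearest to 1, at 1.20 and 1.08, and 0.99 and 1.13 within clusters.

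In single clusters the overlap could be nearly complete. Of 63 SD neurons of the Calcr Brs3 Gal cluster with Esr1, 62 had Pgr (98.4%, 91.5 to 99.96), and 24 of 42 without Esr1 did (57.1%). In the SD+RS library 86 of 125 with Esr1 had Pgr (68.8%). Greb1 went with Esr1 in this cluster in 71.4% and 22.4% of neurons, against 26.2% and 10.2% of neurons without Esr1. In the Crhbp Ramp3 Fam81a cluster, the main aromatase cluster, Cyp19a1 was found in 10.6% of SD neurons with Esr1 (3.55 to 23.1) and 23.0% of those without (16.6 to 30.5), and in 11.4% and 10.4% of SD+RS neurons. Over all neurons, 18.4% and 18.7% had none of the 6 genes, 557 and 590 (14.4% and 13.7%) had Esr1, Pgr and Prlr together, and 2 and 0 had all 6.

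Genes of the same pathways were taken as 6 lists and counted over all neurons. No measured gene of these lists was more than 1.5 times higher or lower, beside 0.753% and 1.51% of all genes, and the median log2 ratio of all genes was -0.02. Among 10 measured steroid and nuclear receptors the median was -0.06. The largest ratios were those of the orphan receptors Esrra (-0.16, -0.26 to -0.05) and Esrrg (-0.13) and of Paqr7 (-0.11), which encodes a membrane progesterone receptor. Esrrg was the gene of this list past 1.5 times in Xist-only neurons, where it went from 9.96 to 6.56 CPM (-0.60, -0.81 to -0.39), and in Y-linked-only neurons it had 0.48 (0.21 to 0.75). Of 9 measured coregulators (median -0.14), Nrip1, which encodes a corepressor of estrogen receptors, stood at 39.2 and 32.8 CPM (-0.26, -0.32 to -0.19), with -0.29 in Xist-only and 0.18 in Y-linked-only neurons. Ncoa3 and Ep300, both coactivators, had -0.19.

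The enzyme list (8 measured, median 0.10) was led by Srd5a1, which encodes a steroid 5α-reductase, at 4.90 and 6.15 CPM (0.33, 0.15 to 0.51), with Cyp7b1 at 0.25 and Star, from 82 and 75 UMIs, at -0.25. Of 11 measured genes of prolactin receptor signalling (median -0.17), the feedback inhibitors Socs3 (-0.56, from 0.99 to 0.67 CPM) and Cish (-0.36) and the growth hormone receptor Ghr (-0.27) had the largest ratios. Among 9 chaperones of steroid receptors (median -0.09), Fkbp5, a glucocorticoid-induced cochaperone, stood at 16.4 and 11.4 CPM (-0.53, -0.65 to -0.42), followed by Fkbp4 (-0.23) and Dnaja1 (-0.18).

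Among 14 measured reproductive genes of the preoptic area (median 0.00), the melanocortin receptor Mc4r (-0.38, from 6.90 to 5.32 CPM), the neuropeptide Gal (-0.32, from 1044 to 837 CPM) and Kiss1r (0.28) had the largest ratios. Gal had -0.55 in Xist-only and -0.01 in Y-linked-only neurons, and Mc4r -0.58 and 0.12. Gnrh1 had -0.87 in Xist-only and 1.35 in Y-linked-only neurons, past 1.5 times in opposite directions, but its cluster held only 7 and 10 neurons.

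Across the 29 clusters, the genes most like each member were ranked by the lower of its Pearson r in the 2 libraries, over 10631 genes on the log2(CPM + 1) scale. The first 5 for Esr1 were Lamp5 (0.73 and 0.80), Scml4 (0.72 and 0.75), Rtn2 (0.77 and 0.71), Diaph3 (0.70 and 0.69) and Hap1 (0.70 and 0.68). For Pgr they were Eif1b (0.80 and 0.78), Gm16485 (0.83 and 0.78), Cdkl2 (0.75 and 0.77), Stc1 (0.73 and 0.75) and Prr36 (0.68 and 0.69). For Greb1 they were Sytl4 (0.68 and 0.69), Pak7 (0.69 and 0.68), Esr2 (0.67 and 0.70), Zbtb7c (0.66 and 0.76) and Stc1 (0.72 and 0.66), and for Prlr Tmem130 (0.76 and 0.70), Diaph3 (0.69 and 0.71), Rps24 (0.67 and 0.68), Rps2 (0.71 and 0.67) and Prrc2b (0.69 and 0.67). Esr1 and Pgr had an r of 0.72 and 0.59 with each other. The points share libraries and depth, and no ranking was made for Esr2 and Cyp19a1, which had fewer than 200 UMIs in each library.

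The authors' deposited table of marker genes, over their 41 clusters of both libraries, gave Prlr for 30 clusters, above the remaining cells in 12 and below in 18. The authors' deposited table listed Esr1 for 5 clusters, Pgr for 4, Greb1 for 2, Esr2 for 1 and Cyp19a1 for none. In the authors' deposited table, Greb1 was found in 72.0% of 1 cluster against 10.6% of other cells, and Esr2 in 38.7% of the same cluster against 2.1%.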

How the data were processed

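Single cells of the mouse preoptic area were measured with droplet sequencing in 1 SD and 1 SD+RS library. The deposited matrices hold counts of UMIs per gene and cell, made by the authors with Cell Ranger 3.0.2 per the file headers, and the submitters' processing notes name Seurat 4.0.4 and mm10. The authors' deposited marker tables hold natural log differences (a log base that the tables do not state), the fraction of cells with each gene, and p-values and adjusted p-values over cells, of which only fractions are printed, as percentages.

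Cells were kept if they had 500 or more genes and mitochondrial UMIs made up less than 20% (9875 SD, 7709 SD+RS), and 5.87% and 3.85% of them were removed as simulated-doublet neighbours. Cells were clustered with scanpy 1.11.5 and leidenalg 0.10.2. Classes were named from marker lists, with thresholds set after seeing the data, and 612 and 101 cells stayed unnamed. Neurons were clustered at resolution 1.5 without the 6 genes and the nuclear receptor list. Levels are summed UMIs per 1000000 UMIs of the same cells, and thinning used exact hypergeometric expectations. The scripts were tested on simulated data. The members and the gene lists were chosen with earlier results of these data known. Clusters named for each gene are the 5 highest by mean level and the 3 highest and 3 lowest ratios (at least 20 UMIs in each library). List genes named are those past 1.5 times and otherwise the 3 with the largest ratios, and marker-defined types are the 5 with the highest shares. Further clusters were named after their values were seen. Alternatives covered filters, doublets, depth, cluster weights, sex calls and resolution. Some genes of the fixed lists and rankings are not reported here, and cluster names skip them.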

Additional observations from a re-analysis of the deposited data

Results flagged for a closer look

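The log2 ratio of SD+RS over SD had opposite signs in Xist-only and Y-linked-only neurons for 3 genes. It was 0.28 and -0.12 for Esr2, 0.28 and -0.89 for Cyp19a1, and 0.081 and -0.10 for Prlr. The difference between the sets was not tested in any of them, and with 1 library per condition it cannot be.

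Cells of the unnamed clusters, which were left out of the neurons above, also held these transcripts. There were 612 (SD) and 101 (SD+RS) of them, with medians of 3633.5 and 4292 UMIs. A cluster with neuron markers held 622 of them (558 SD, median 3205 UMIs). A cluster with markers of newly formed oligodendrocytes held 91 (54 SD, median 15002 UMIs). The mix of these clusters differed between the libraries, so the levels of the libraries cover unlike cells. Over both clusters, the SD and SD+RS levels were 73.7 and 19.8 CPM for Pgr, 30.1 and 3.12 CPM for Greb1 and 222 and 53.1 CPM for Prlr. They were 11.1 and 7.28 CPM for Esr1, 3.28 and 2.08 CPM for Esr2, and 1.97 and 0 CPM for Cyp19a1. Under SD, Pgr, Greb1, Prlr and Esr2 were higher there than in the named neurons (41.8, 14.3, 163.5 and 1.82 CPM), although Esr2 rested on 10 UMIs, Cyp19a1 was close (1.93 CPM) and Esr1 was lower (21.4 CPM).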

How the results depend on the processing

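The signs of all 6 ratios over all neurons, and values near the reported ones, were kept with doublets kept, with stricter cell filters (at least 1000 genes and under 10% mitochondrial UMIs), with neurons called per cell, with ratios centred on the median gene, without the cluster of the highest level, and with the neuron-marked cells of unnamed clusters added. For Esr1 the log2 ratio of 0.58 became 0.68 as a mean over cells, 0.67 after thinning to 5000 UMIs, 0.37 with clusters weighted by their share over both libraries, 0.66 in Xist-only and 0.40 in Y-linked-only neurons. For Pgr it was -0.69 in Xist-only and -0.10 in Y-linked-only neurons, -0.70 with weighted clusters and -0.34 with both sets weighted equally. For Greb1 it was -0.85, -0.031, -1.16 and -0.18 under the same settings. For Cyp19a1 the sign turned in Xist-only neurons (0.28), and with both sets weighted equally it was -0.55. For Prlr it turned in Xist-only neurons (0.081), and was -0.17 with weighted clusters and -0.016 with both sets weighted equally. For Esr2 it was 0.28 in Xist-only neurons. With weighted clusters, the ratios within Xist-only neurons were 0.16 for Esr1, -0.53 for Esr2, -0.83 for Pgr, -1.36 for Greb1, -0.46 for Cyp19a1 and -0.10 for Prlr, whose sign turned, and within Y-linked-only neurons they were 0.24 for Esr1, -0.24 for Pgr and 0.17 for Greb1. The weightings within and across the sets and the added cells were chosen after seeing the data, and the causes of these shifts were not tested. Calling sex from at least 2 UMIs kept all 12 ratios within the 2 sets. Shares of neurons moved with 2 UMIs or with thinning in 12 of 12 cases each, the highest shares among marker-defined types moved in 6 of 12 cases with 1 UMI of the marker and in 5 of 12 with 5 UMIs, and the highest cluster level moved in 3 of 12 cases at resolution 1.0 and 7 of 12 at resolution 2.0. Counts of Esr2 and Cyp19a1 (91 to 173 UMIs) limit what can be said of them in single clusters. No paired analysis was possible because each condition has 1 library.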

Other observations

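Clusters with under 50 neurons in a library were left out of the comparisons, and some had distinct levels. The Oxt Avp H2-K1 cluster (47 SD and 45 SD+RS neurons), of oxytocin and vasopressin cells, had Esr2 in 12.8% (4.83 to 25.7) and 15.6% (6.49 to 29.5) of neurons, at 3.64 and 2.94 CPM, beside Esr1 in 4.26% and 8.89%, at 3.12 and 4.20 CPM. Its Greb1 count was 1 and 0 UMIs and its Cyp19a1 count 0 and 0. In the Prok2 Adcyap1 Fam19a2 cluster (46 and 81 neurons), Prlr was found in 73.9% and 60.5% of neurons and Pgr in 41.3% and 32.1%. The Trh Otp Sim1 cluster (50 and 48 neurons) had Greb1 in 12% and 14.6% of neurons, with Esr1 in 2.00% and 4.17%.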
